A study of Mus musculus with 9 samples.

Results

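Open chromatin was described at 8 genes that mark the large peritoneal macrophage, the long-lived resident macrophage of the abdominal cavity: Gata6, Tgfb2, Icam2, Timd4, Adgre1, Garnl3, F10 and Prg4. They are 8 of 21631 protein-coding genes in the RefSeq annotation of GRCm38, the build of the peak lists. Each gene was taken with 50 kb on each side, so that distal sites counted. All 8 windows held at least 1 called site, as did 16838 of the 21631 windows of protein-coding genes. ATAC-seq, which finds accessible DNA by where a transposase can cut it, had been run on 9 samples of sorted mouse peritoneal macrophages in 3 groups of 3. Monocyte-derived macrophages were taken 4 days after 2 ml of thioglycollate, a sterile irritant that recruits monocytes. Tissue-converted macrophages came from mice that received 2 ml of thioglycollate and a tamoxifen diet for 8 weeks. Tissue-resident macrophages have no group treatment in the labels. All mice were Cx3cr1CreERT2-IRES-EYFP/+ Rosa26-stopfl-tdTomato/+, carrying a tamoxifen-inducible Cre expressed from Cx3cr1 and a Cre-dependent reporter. IL-4 complexed with anti-IL4 (5 µg and 25 µg) is a stimulus for alternative activation. It was injected every other day over the last 4 days in the mice of all 3 groups. No source used here gives the age, the sex or the markers used for sorting, and the RNA-seq of the study was not analysed here.

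The deposited data are 1 merged peak list per group, without read counts, so the spread between replicates and the depth are unknown, and no test between groups was possible. The lists held 33694 monocyte-derived, 15552 converted and 24348 resident peaks. A site without a call is not shown to be closed. The kind of macrophage and the treatment changed together between the groups and cannot be told apart. Monocyte-derived and converted groups had the same dose of thioglycollate, and no time from it to harvest was available here for converted cells. Windows of the macrophage genes Csf1r, Spi1, Cd68, Mertk, Fcgr1 and Itgam held calls in every list, 6 of 6 genes each. Over all gene windows with a region, the median was 4 monocyte-derived, 2 converted and 3 resident regions, so such calls are not particular to macrophage genes. Windows of 6 monocyte and small peritoneal macrophage markers summed to 29 monocyte-derived, 9 converted and 12 resident regions, and Ccr2, a monocyte receptor gene, had 4, 0 and 0. Ly6c2, another of the 6, went the other way, with 3, 2 and 4. Resident regions outnumbered monocyte-derived ones at 1 of the 6 genes and were fewer at 4, against 12.0% and 68.0% of all gene windows with a region. Windows of 4 B cell markers summed to 13, 5 and 5 (Ms4a1 had none), of 4 mesothelial markers to 3, 2 and 3 (Wt1 and Krt19 had none), and of 4 T and NK cell markers to 15, 4 and 4. Those of 4 eosinophil and mast cell markers summed to 12, 7 and 9 (Cpa3 had none), and of 4 neutrophil markers to 12, 5 and 7 (Ly6g had none). The part of other cells in the results was not tested.

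As background, resident peritoneal macrophages depend on the transcription factor GATA6, which is induced by retinoic acid made in the cavity and controls many genes particular to this cell. TIM-4 (Timd4), ICAM-2 (Icam2) and a high level of F4/80 (Adgre1) are used to recognise these cells, whereas macrophages recruited from blood monocytes during inflammation start out with little of them. Accessible chromatin marks promoters and enhancers that may be in use, but does not measure transcription.

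The 8 windows held 50 of the 36843 regions formed by joining peaks of any list that overlapped by at least 1 bp. Tissue-only regions, called in the converted list, the resident list or both and not in the monocyte-derived list, made up 23 of the 50 (46.0%, 95% Wilson interval 33.0 to 59.6%, which covers counting error over regions only). Across the series they made up 14.5% of 36843. Regions called in all 3 lists were 7 of 50 (14.0%), against 28.1% across the series, and regions of the monocyte-derived list alone were 13 of 50 (26.0%), against 39.5%. The tissue-only regions were 15 of the resident list alone, 5 of the converted list alone and 3 of both. They were spread over 7 of the 8 genes, with none at F10, while 40.2% of the 16838 gene windows with a region held at least 1.

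Of the 21 regions that touched a member gene, 16 were tissue-only (76.2%, 54.9 to 89.4%), against 13.0% of the 24913 regions that touched any protein-coding gene. All intervals given here take each region as a separate site. Regions inside Tgfb2 lay as little as 25 and 75 bp apart, so the intervals may be too narrow. Of the same 21, 2 were called in the monocyte-derived list alone and 2 in all 3 lists (9.52% each), against 35.5% and 33.1% of regions in gene bodies. Of the 12 regions that lay in other genes of the windows, 1 was tissue-only and 4 were monocyte-derived only, beside the same shares over gene bodies (13.0% and 35.5%). The 17 regions outside genes held 6 tissue-only (35.3%) and 7 monocyte-derived-only regions (41.2%), against 17.5% and 47.8% of the 11930 regions outside genes. Exons, introns and untranslated parts are not stated, because the annotation used gives gene bounds only.

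**Figure D1:**
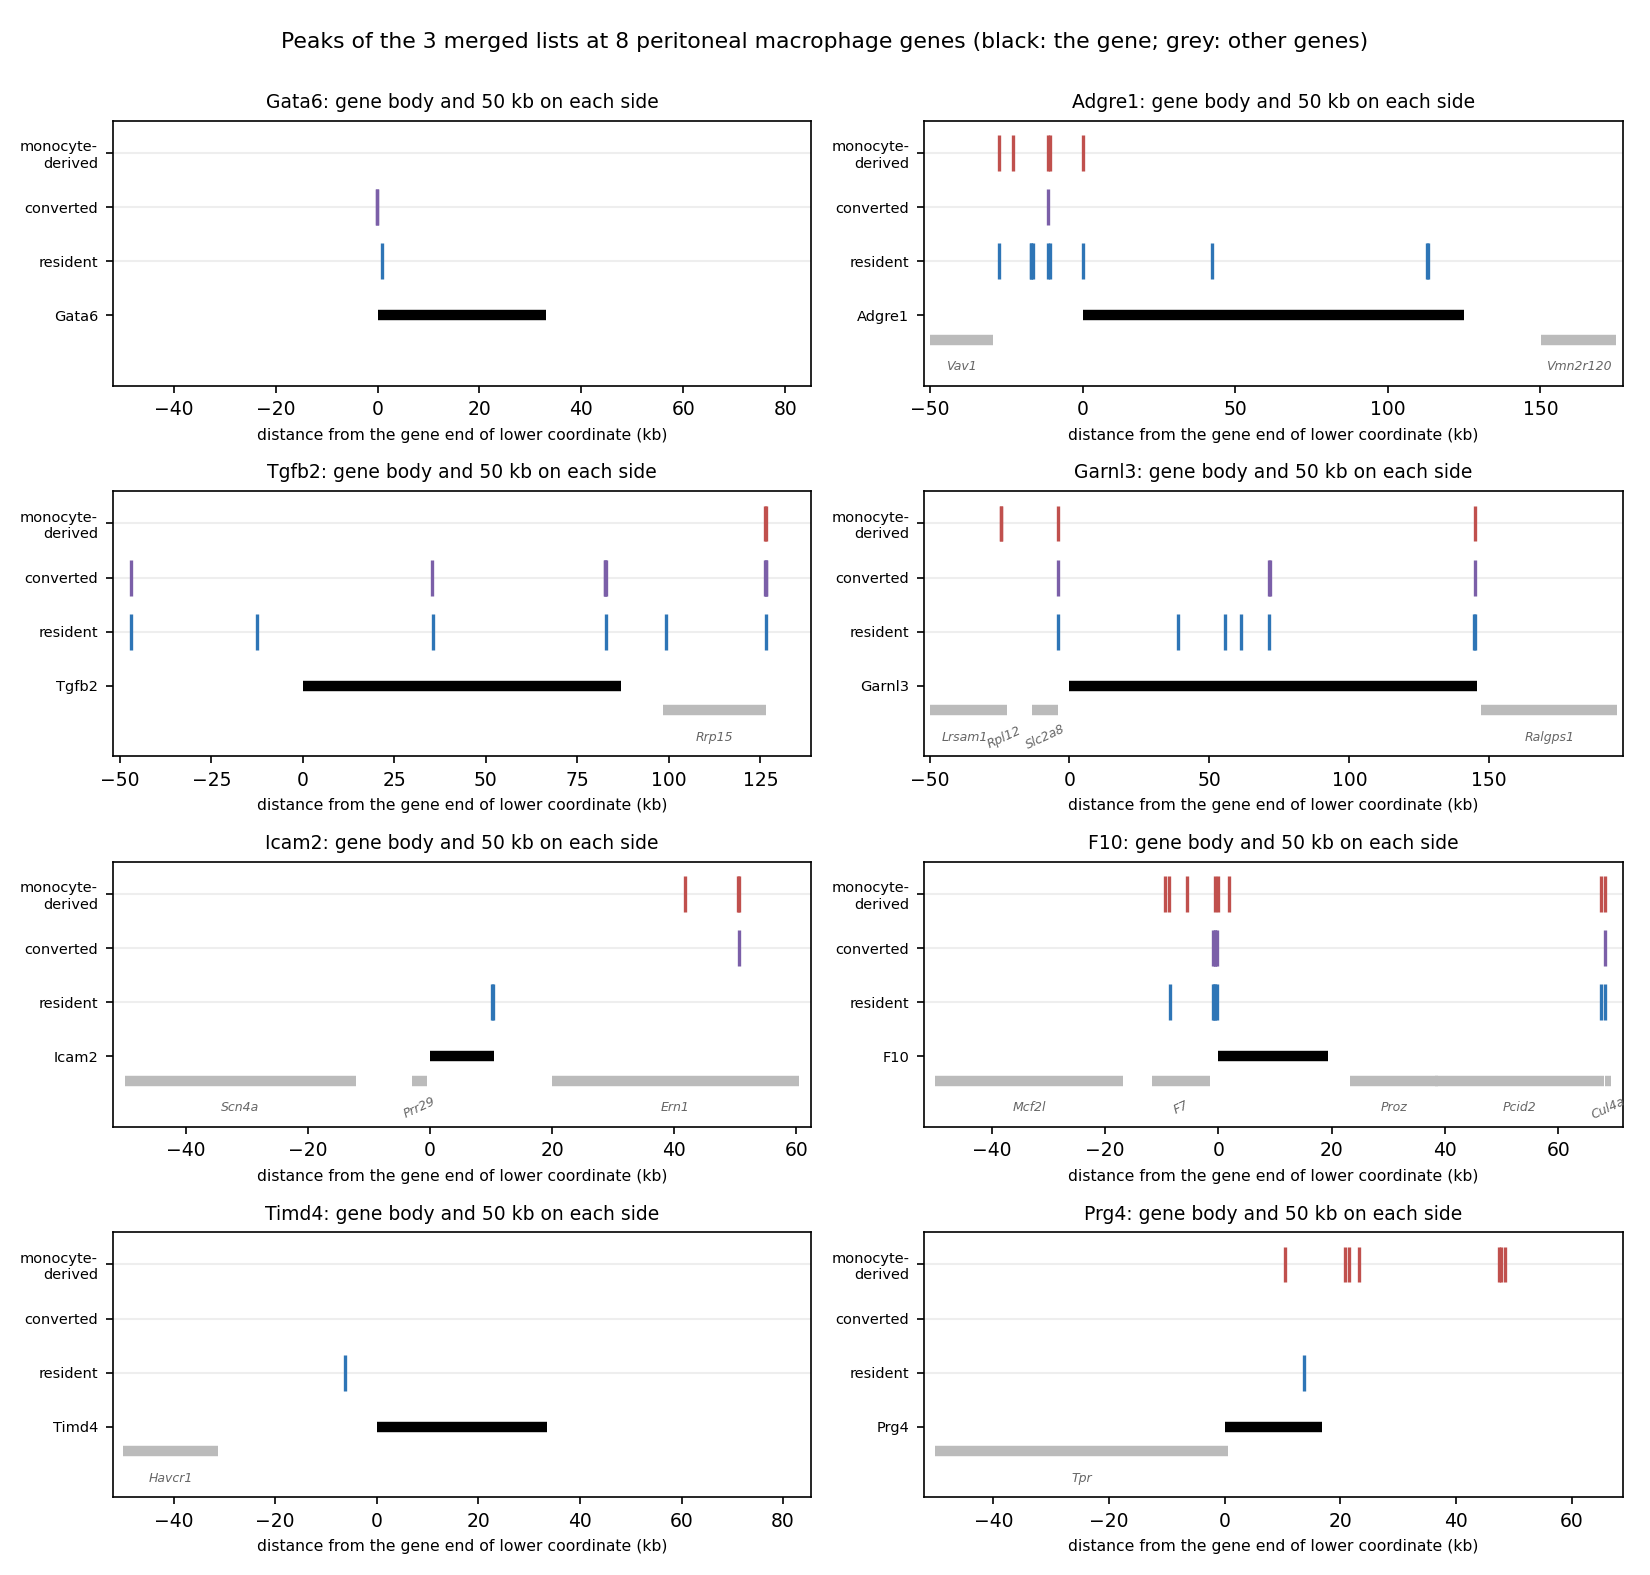
Map of the peaks of the monocyte-derived (red), converted (purple) and resident (blue) lists in each gene window; the x axis is the distance in kb from the gene end of lower coordinate, the black bar is the gene and grey bars are other genes. Peaks inside Tgfb2, Garnl3 and Adgre1 are mostly of the tissue lists, Gata6 and Timd4 have no monocyte-derived peak, and the Prg4 window has 7 monocyte-derived peaks and 1 resident peak.

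Promoter sequences matched 4 of the 8 genes (Tgfb2, Garnl3, F10 and Timd4, with 5 start sites in all). They are shown so that the calls over the printed stretches can be read against the sequence. Peaks of every list lay over at least part of the F10 and Garnl3 stretches, and none over those of Tgfb2 and Timd4. The 250 bases before a start site of each gene follow, from the RefSeq table of GRCm38, 5′ to 3′ on the gene's strand. Capitals mark matches to the words searched on both strands: the GATA factor word AGATAA, the PU.1 word GAGGAAGT, the AP-1 word TGANTCA, the C/EBP word TTGCNNAA, the nuclear receptor element AGGTCA, the E-box CACGTG and the KLF word CCACCC.
F10, chr8:13037058-13037307, plus strand: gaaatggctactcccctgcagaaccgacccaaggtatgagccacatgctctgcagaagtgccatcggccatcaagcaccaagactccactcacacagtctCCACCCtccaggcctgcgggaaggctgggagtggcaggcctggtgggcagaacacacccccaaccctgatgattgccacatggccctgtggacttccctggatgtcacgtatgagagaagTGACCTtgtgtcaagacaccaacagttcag
Garnl3, chr2:33130620-33130869, minus strand: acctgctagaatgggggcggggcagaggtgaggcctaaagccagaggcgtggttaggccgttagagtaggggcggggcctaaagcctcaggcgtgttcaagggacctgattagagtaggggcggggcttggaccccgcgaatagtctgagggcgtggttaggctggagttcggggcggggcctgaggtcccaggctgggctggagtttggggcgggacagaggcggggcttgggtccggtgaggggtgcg
Tgfb2, chr1:186705990-186706239, minus strand: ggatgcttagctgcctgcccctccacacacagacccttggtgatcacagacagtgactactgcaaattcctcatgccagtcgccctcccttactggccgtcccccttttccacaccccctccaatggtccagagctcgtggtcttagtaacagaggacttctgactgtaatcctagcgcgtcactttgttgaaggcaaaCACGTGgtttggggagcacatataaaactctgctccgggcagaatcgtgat
Timd4, chr11:46810549-46810798, plus strand: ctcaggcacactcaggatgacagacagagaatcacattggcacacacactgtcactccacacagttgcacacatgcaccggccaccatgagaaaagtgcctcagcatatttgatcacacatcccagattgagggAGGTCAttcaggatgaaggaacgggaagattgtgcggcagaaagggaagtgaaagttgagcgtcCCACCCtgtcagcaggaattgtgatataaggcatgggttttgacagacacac

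The F10 stretch lay under peaks of all 3 lists, with 250 of its 250 bases covered in monocyte-derived, 156 in resident and 100 in converted cells. The Garnl3 stretch was covered over all 250 bases in every list, while the 250 bases before the other start site of Garnl3, at position 33131436, had no peak over them. The Tgfb2 and Timd4 stretches had no peak in any list. Across 32619 RefSeq promoters on the chromosomes of the lists, 28.3% had a monocyte-derived peak over these 250 bases, 22.9% a resident peak and 18.2% a converted peak. AGATAA, which is in 9.99% of 32851 promoters, was in none of the 4 stretches, nor were the PU.1, AP-1 and C/EBP words, found in 2.44%, 6.75% and 9.56%. AGGTCA, in 14.0% of promoters, was found once at F10 (as TGACCT, 30 bases before the start) and once at Timd4 (116 bases before). CCACCC, in 28.1%, was found once at each of the same genes, and CACGTG, in 6.02%, once at Tgfb2, 51 bases before the start. These matches are letters in a window and do not show that a factor bound.

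Gata6 encodes the transcription factor that defines the resident peritoneal macrophage. Its window on chromosome 18 (gene 11052510 to 11085636) held 2 converted regions, 1 resident region and 0 monocyte-derived regions, and no other protein-coding gene. The converted calls, 11052289 to 11052413 and 11052439 to 11052538, were 25 bp apart, and the upper of them crossed the gene end. The resident call, 11053264 to 11053338, lay 725 bp further into the gene. All 3 lay within 1 kb of that end, so the remainder of the gene and the flanks had no call in any list. The nearest region beyond them was a monocyte-derived peak 110.8 kb from the gene. The deposited p-values were 4.87e-06 and 5.61e-06 for the converted peaks and 8.27e-06 for the resident peak. Peaks with equal or smaller values made up 67.0% and 77.2% of the converted list and 73.0% of the resident list, so all 3 calls were among the weaker ones of their lists. At equal list lengths, with the longer lists reduced to their smallest p-values, the resident call was lost. The converted list is the shortest and was kept whole, so the converted calls could not be lost in this setting. With peaks within 200 bp joined, the converted calls became 1 region, and the tissue lists had 1 each.

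Tgfb2 encodes a secreted ligand of the transforming growth factor family. On chromosome 1 (186622787 to 186709697) its window held 7 converted, 6 resident and 2 monocyte-derived regions. Both monocyte-derived regions lay 39.3 and 39.5 kb from the gene at the far end of Rrp15, a gene for ribosomal RNA processing, and were also called in converted cells. The other 8 regions were tissue-only. Of 16838 gene windows with a region, 33 (0.196%) had as many tissue-only regions, Tgfb2 among them, and windows of longer genes can hold more.

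The Tgfb2 calls of the tissue lists fell at like places. A region 46.9 kb outside the gene, 186575689 to 186575888, was called in both, with p-values of 1.69e-06 in converted and 3.39e-06 in resident cells. Midway in the gene, a converted call (186657914 to 186658013) and a resident call (186658264 to 186658338) stood 250 bp apart. Just inside the start site whose promoter is printed above, at position 186705989, 3 regions followed with gaps of 25 and 75 bp: 186705264 to 186705338 and 186705364 to 186705438 in converted cells only, and 186705514 to 186705613 in both. They lay 376 to 725 bp downstream of the start, with converted p-values of 4.70e-06 to 5.61e-06 and a resident p-value of 6.37e-06. The latter was equalled or passed by 56.2% of resident peaks. Resident cells alone had 2 more calls, 12.6 kb outside the gene (186610089 to 186610188) and in Rrp15 (186722064 to 186722163).

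The net of Tgfb2, regions called in the first list only minus those in the second only, was 5 for converted minus monocyte-derived, and no other gene window had a net as high. When peaks within 200 bp were joined it was 3, which 8 of 16838 windows reached, and its 7 converted regions became 4 against 6 resident. The converted minus resident net then turned from 1 to -2. Its tissue-only regions went from 8 to 6 with the joining, and 33 windows again had as many.

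Of the surface molecules, Icam2 encodes an adhesion receptor for leukocyte integrins. On chromosome 11 (106377656 to 106388139) its gene body held 1 region, 106387814 to 106387988, called in resident cells by 2 overlapping peaks (p-values of 5.63e-06 and 1.18e-05) and lying 0.151 kb from the gene end of higher coordinate. The other 2 regions of the window lay 31.4 and 40.0 kb away inside Ern1, the gene of an endoplasmic reticulum stress sensor. Both were called in monocyte-derived cells, and the farther one also in converted cells. The window count was therefore 2 monocyte-derived, 1 converted and 1 resident, and with 10 kb on each side it was 0, 0 and 1.

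Timd4 encodes a receptor for phosphatidylserine on dying cells. Its window on chromosome 11 (gene 46810786 to 46844333) held 1 region in all, a resident peak of 75 bp at 46804589 to 46804663, 6.14 kb upstream of the printed start site, with a p-value of 8.27e-06. The gene body and the promoter had no call in any list. The nearest monocyte-derived and converted peaks lay 329.97 and 330.1 kb from the gene.

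Adgre1 encodes F4/80, a surface receptor of mature mouse macrophages. On chromosome 17 (57358581 to 57483529) it had 9 resident, 5 monocyte-derived and 1 converted region, the most resident calls among the 8 genes. The region at the gene end, 57358514 to 57358638, was called in resident and monocyte-derived cells, with p-values of 1.18e-05 and 8.60e-06 that were weak in both lists. Inside the gene 3 further regions were resident only, at 57400864 to 57400988, 57471339 to 57471438 and 57471764 to 57471838. Outside it, the 2 resident-only regions 57341614 to 57341788 and 57342139 to 57342238 stood about 16.8 and 16.3 kb away and nearer to Vav1, a signalling gene of blood cells. The 1 region of all 3 lists, 57347014 to 57347313, lay 11.3 kb outside the gene, and it was the only converted call. Of 16838 gene windows, 115 (0.683%) had at least 5 tissue-only regions, as Adgre1 did. With p at most 1e-05 in every list, resident regions went from 9 to 6 and the net against monocyte-derived from 4 to 1. The 5 tissue-only regions stood 4.78 to 113.1 kb from the nearest monocyte-derived peak.

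Garnl3 encodes a protein with a domain like those of GTPase activators of the Rap family. On chromosome 2 (32986225 to 33131859) it had 6 resident, 3 converted and 3 monocyte-derived regions. The region 33130564 to 33131413, 850 bp wide over the promoter printed above, was called in all 3 lists and reached the p-value floor of 1e-12 in each. The 4 other regions of the gene body were tissue-only: 33025114 to 33025213, 33041814 to 33041913 and 33047464 to 33047563 in resident cells and 33057589 to 33057763 in both tissue lists. They lay 72.9 to 105.5 kb downstream of that start site. Among the resident p-values there, 3.39e-06 at 33041814 was the smallest and 1.05e-05 at the region shared with converted cells the largest. Beyond the gene, a region of all 3 lists stood at the end of Slc2a8, a sugar transporter gene, and 1 monocyte-derived region at the end of Lrsam1. The gene thus had a promoter open in every list and further calls inside it in the tissue lists only.

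F10 and Prg4 encode secreted proteins, and their windows had fewer resident than monocyte-derived regions, as did 68.0% of gene windows with a region. F10, coagulation factor X, lies on chromosome 8 (13037308 to 13056676) and had 8 monocyte-derived, 5 resident and 3 converted regions, with none that was tissue-only. Regions over the promoter (13037039 to 13037338) and before it (13036289 to 13036863) were called in every list. Both monocyte-derived peaks were at the floor of 1e-12, and the resident and converted peaks over the promoter had p-values of 1.85e-07 and 3.70e-07. For the promoter peaks, equal or smaller values made up 18.5% of the monocyte-derived, 17.1% of the resident and 35.7% of the converted list. A region inside the gene, 13039164 to 13039338, was monocyte-derived only. In the neighbouring F7, coagulation factor VII, 2 more regions were monocyte-derived only and 1 was also resident. The remaining 2, in Pcid2 and across its border with Cul4a, lay about 48 kb away. Counting only regions whose nearest gene was F10 left 3 monocyte-derived, 2 converted and 2 resident regions. Its resident minus monocyte-derived net in the whole window was -3, and 29.2% of gene windows had a net of -3 or lower.

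Prg4 encodes lubricin, a proteoglycan that coats surfaces of joints and serous cavities. On chromosome 1 (150449412 to 150466221) it had 7 monocyte-derived, 1 resident and 0 converted regions, and no region was shared between lists. The resident call, 150463039 to 150463213, and the monocyte-derived call at 150459739 to 150459813 lay inside the gene. The other 6 monocyte-derived calls formed groups of 3 outside it, 3.84 to 6.29 kb and 30.5 to 31.6 kb from the gene end. The strongest was 150470064 to 150470313, 250 bp wide, with a p-value of 2.07e-07. A resident minus monocyte-derived net of -6 or lower was found in 5.60% of gene windows. At equal list lengths the counts were 1 monocyte-derived and 1 resident.

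**Figure D2:**
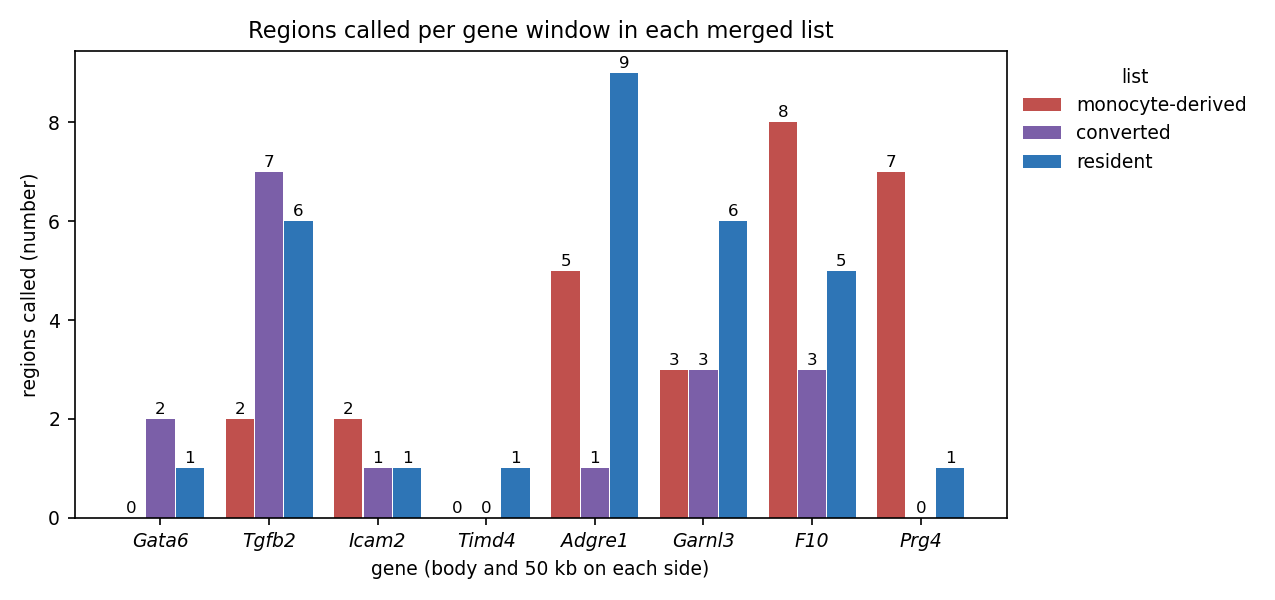
Number of regions called in the window of each gene, flanks of 50 kb included, by merged list; 1 bar is 1 list, so there are no error bars. Adgre1 ran from 1 converted to 9 resident regions, Tgfb2 from 2 monocyte-derived to 7 converted, and F10 and Prg4 had most regions in the monocyte-derived list (8 and 7).

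The first comparison asked whether resident cells had more accessible sites at these genes than monocyte-derived cells. More resident regions were found at 5 of 8 genes (Gata6, Tgfb2, Timd4, Adgre1 and Garnl3), against 12.0% of the 16838 gene windows with a region, and fewer at 3 (Icam2, F10 and Prg4), against 68.0%. The median net was 1, where that of all windows was -1. In regions, 18 were called in resident but not monocyte-derived cells and 15 the reverse. The resident share of these unshared regions was 54.5% (38.0 to 70.2%), against 23.1% across the series. At equal list lengths the share was 75.0%, against 45.8%. With p at most 1e-05 in every list it was 45.5%, against 18.4%, so that monocyte-derived regions were then the more numerous, and likewise without Adgre1 or without Tgfb2 (48.1% each).

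Converted cells were set against monocyte-derived cells at the same genes. More converted regions were found at 2 of 8 genes, Gata6 and Tgfb2, against 2.72% of gene windows, and fewer at 4 (Icam2, Adgre1, F10 and Prg4), against 83.8%. Timd4, with no call in either list, and Garnl3 had a net of 0. The median net was -0.5, and -2 over all windows. Of the unshared regions, 8 were converted and 18 monocyte-derived, a converted share of 30.8% (16.5 to 49.99%) against 6.08% across the series. Tgfb2 gave 5 of the 8, and without it the share was 14.3% (3 against 18). At equal list lengths the share was 69.2% (9 against 4), against 41.3% across the series. In gene bodies alone it was 66.7% (6 against 3, 35.4 to 87.9%), and Tgfb2 gave 4 of the 6.

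Converted and resident cells were then compared. More converted regions were found at 2 of 8 genes, again Gata6 and Tgfb2, against 7.25% of gene windows, and fewer at 5 (Timd4, Adgre1, Garnl3, F10 and Prg4), against 61.2%. The nets of -8 at Adgre1 and -3 at Garnl3 were the lowest, and 0.279% of gene windows had a net of -8 or lower. The median net was -1 for these genes and for all windows. The converted share of unshared regions, 25.9% (13.2 to 44.7%, 7 against 20), stood beside 16.8% across the series and fell below the series value at equal list lengths (39.1% against 46.0%), with peaks within 200 bp joined (13.0% against 15.5%) and without Tgfb2 (15.0%). The 3 comparisons share lists, so their values are not independent of each other.

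**Figure D3:**
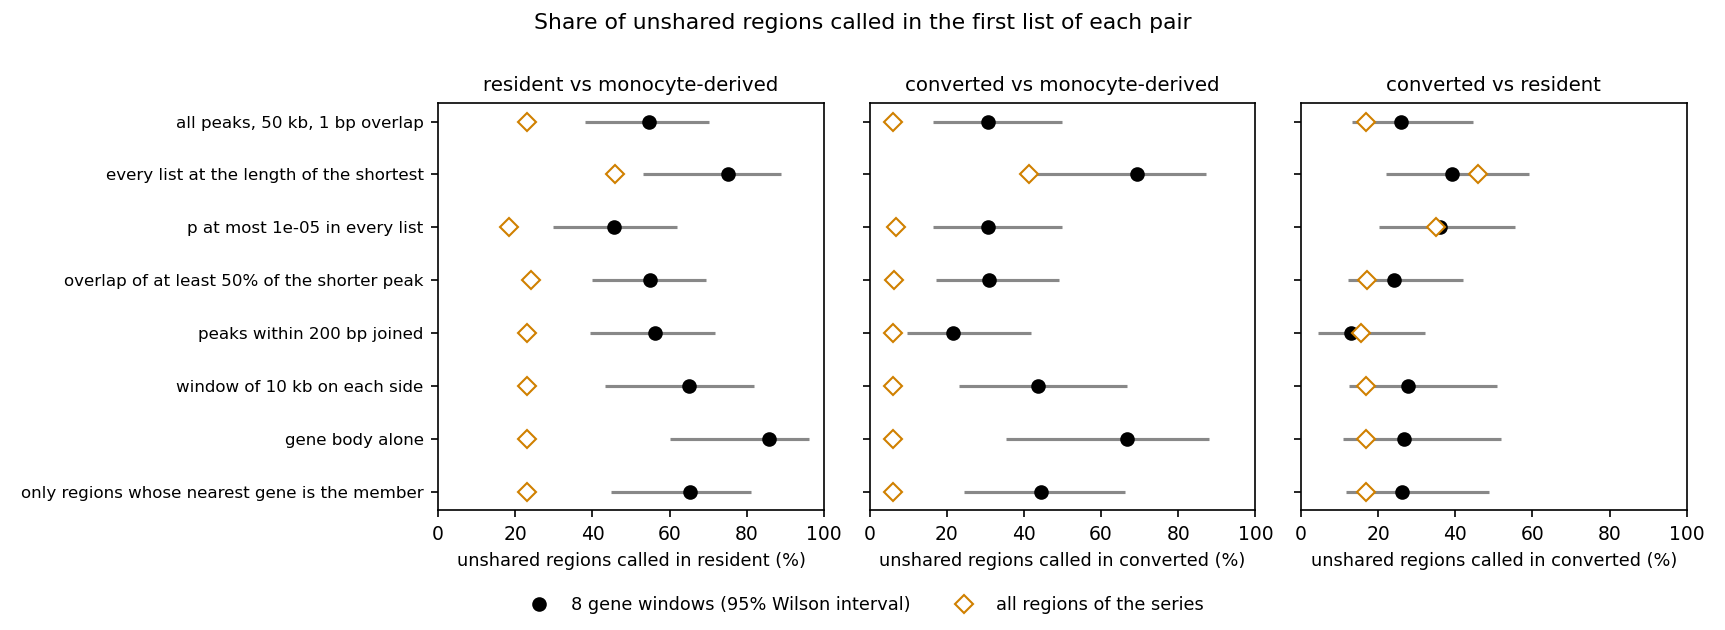
Share (%) of regions called in only one list of a pair that belonged to the list named first, for the 8 gene windows (black points, with 95% Wilson intervals) and for all regions of the series (open diamonds), in the main setting (top row) and under each other setting named at the left. In both comparisons with the monocyte-derived list the black points lie above the diamonds in every row, at 54.5% against 23.1% and 30.8% against 6.08% in the top row, while for converted against resident they lie on both sides. In the rows for 10 kb, gene bodies and nearest gene, the diamonds repeat the top row, because they count regions at any place.

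Converted-only calls were found at Gata6 and Tgfb2 alone, close to resident calls. Each of the 5 regions called in converted cells alone had a resident peak within 1 kb (gaps of 0.100 to 0.850 kb), against 34.6% of the 570 such regions in the series. The 5 are not separate sites, since the 2 at Gata6 lay 25 bp apart, as did 2 of those at Tgfb2. Of the 15 regions of resident cells alone, 2 had a converted peak within 1 kb, against 21.0% of 4044. None of the 23 tissue-only regions had a monocyte-derived peak within 1 kb, the nearest being 3.23 kb away at Prg4. In the series, 28.1% of resident-only, 31.8% of converted-only and 17.8% of the 715 shared tissue regions did.

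By the authors' p-values, the median tissue-only call in these windows ranked below the middle of its list, and less low than that of the whole series. Of 20 resident peaks in tissue-only regions, 0 were at the p-value floor and 4 lay above 1e-05 (1.09% and 19.0% of all such peaks of the list). Their median peak was outranked or equalled by 56.2% of the resident list, against 73.0% for all such peaks of the series. The 9 converted peaks in tissue-only regions had a median of 67.0%, against 77.2%, and 0 were at the floor. In regions called in every list the floor was reached by 6 of 7 peaks in the monocyte-derived list, 3 of 10 in the converted and 2 of 10 in the resident, against 49.2%, 23.9% and 22.9% of all such peaks. The tissue-only peaks had a median width of 100 bp in both lists, against 100 bp (converted) and 75 bp (resident) in the series. Monocyte-derived-only peaks in these windows had a median of 81.3%, against 67.0% in the series.

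**Figure D4:**
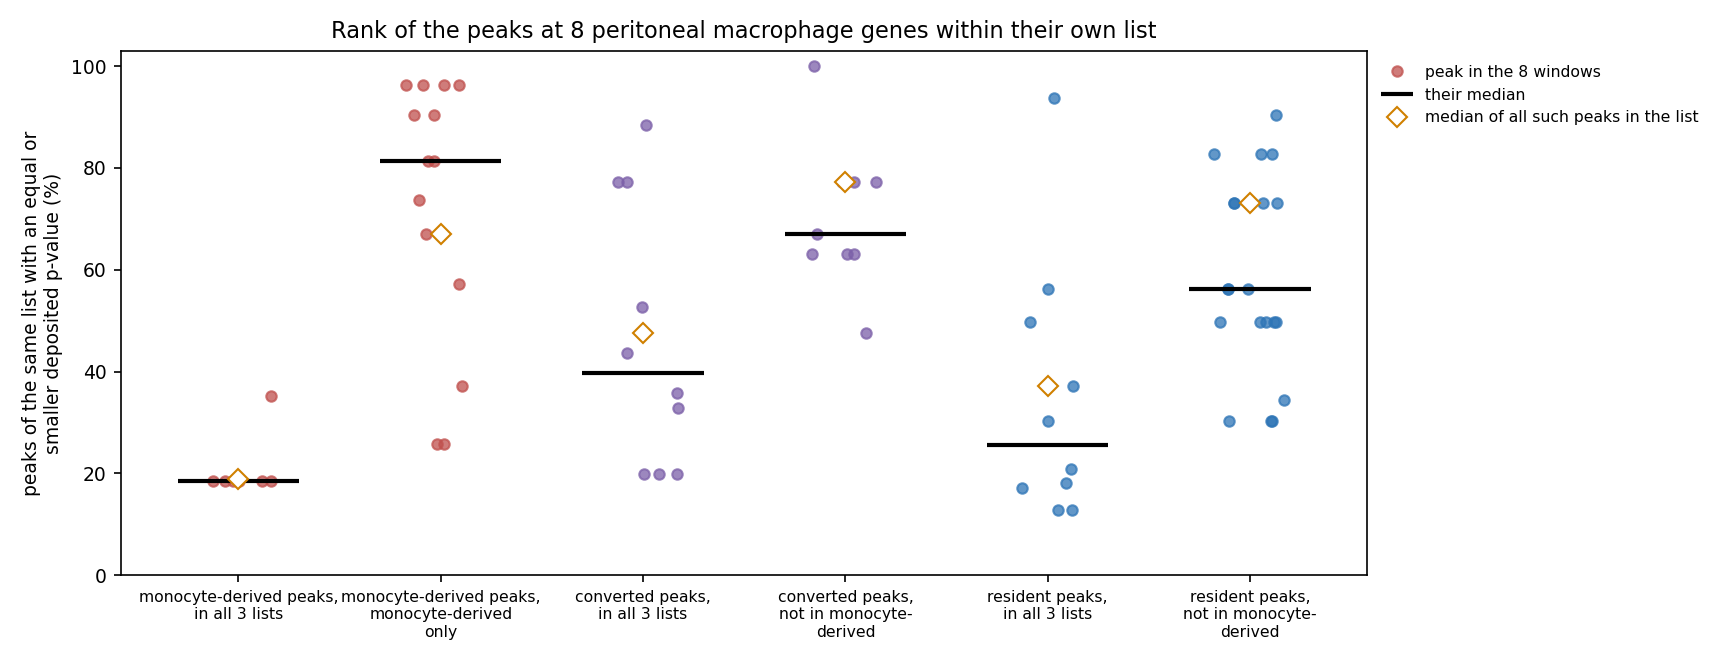
Percent of the same list with an equal or smaller deposited p-value (y axis, where low values are strong peaks) for each peak in the 8 windows, by list, with regions called in all 3 lists apart from regions called in the monocyte-derived list alone or not in it; bars are medians of the points and open diamonds are medians of all such peaks of the list. Peaks of tissue-only regions lie between 30.4% and 100%, and those of regions called in all 3 lists run from the floor, at 12.9% to 19.9%, up to 93.6%.

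Other genes of the same cell were read from a list of 18 resident peritoneal macrophage genes. Of these, 4 had more resident than monocyte-derived regions and 11 fewer, and 2 had more converted than monocyte-derived regions and 14 fewer, with a median net of -2 in both, against -1 and -2 over all windows. Over all windows 12.0% had more and 68.0% fewer resident, and 2.72% more and 83.8% fewer converted regions. Alox15, a lipoxygenase gene, had 3 resident, 1 converted and 1 monocyte-derived region, and Cxcl13, a B cell chemokine gene, had 2, 1 and 0. Thbs1, which encodes thrombospondin, had 2, 0 and 1, and Slpi, a protease inhibitor gene, 1, 0 and 0. Serpinb2, another protease inhibitor gene, had 3, 4 and 8, Selp, the P-selectin gene, 3, 2 and 6, and F5, coagulation factor V, 4, 4 and 7. Calls at Naip1, an inflammasome sensor gene, came from the monocyte-derived list alone (3 regions). Aspa, an aspartoacylase gene, had 0, 3 and 2, the largest net (3) of converted over resident in this list. Between the tissue lists, 2 had more converted than resident regions and 11 fewer, beside 7.25% and 61.2% of all windows. Padi4, a citrullinating enzyme gene, had the lowest net (-3, from 4 resident and 1 converted). Rarb, whose product is a receptor of retinoic acid, had 5 resident, 3 converted and 7 monocyte-derived regions.

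Among 9 regulators of macrophage identity, 1 had more resident than monocyte-derived regions, 7 had fewer, and 8 had fewer converted than monocyte-derived regions. Against resident cells, 0 had more converted regions and 5 had fewer. With 9 genes, these counts stood near the shares of all windows given above. The former was Bhlhe40, a repressor of the basic helix-loop-helix family, with 11 resident, 6 converted and 10 monocyte-derived regions. Cebpb, a leucine zipper factor gene, had 6, 5 and 11, and Rara, which encodes a retinoic acid receptor, 6, 4 and 9. Rxrb, which encodes a partner of such receptors, had 3, 0 and 4. Csf1r, the growth factor receptor gene, and Spi1, which encodes PU.1, each had 2, 2 and 5. Wt1, a transcription factor gene of the mesothelium, had none in any list. Csf1r, Spi1 and Wt1 are also among the cell type markers given above.

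Likeness of pattern was measured as the distance between the numbers of regions in the 7 possible call classes (Euclidean, over the 3 lists). The window nearest to that of Tgfb2 was that of Fer, at a distance of 1.73. Epn2 and Pigt had the same numbers as Icam2 (distance 0). For the remaining genes more than 3 windows tied, with 350 equal to Timd4, 12 equal to F10, 25 at a distance of 1 from Gata6, 9 at 1 from Garnl3, 17 at 1 from Prg4 and 5 at 1.73 from Adgre1.

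The limit of 50 kb bore on the F10 window most closely. Its farthest region inside lay 48.7 kb from the gene and was called in all 3 lists, and the nearest one outside, 52.9 kb away, was monocyte-derived and resident. For the others the nearest region outside lay 55.7 kb (Prg4) to 111.7 kb (Timd4) away.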

How the data were processed

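ATAC-seq peak lists were analysed, 1 per group, each merged by the authors from 3 samples per the labels. Per the submitters' processing notes, Bowtie2 2.2.9 and the build mm10, or GRCm38, were used. Not given in the sources used here: the peak caller, the shift for the transposase, duplicate removal and how samples were merged, any of which can change which peaks are listed. The only measure is a p-value per peak, as the authors deposited it, with a floor of 1e-12 and edges on a grid of 25 bp. All 3 lists carry a p-value of 1e-05 in their names. Resident peaks above 1e-05 still made up 22.5% of that list (monocyte-derived 3.76%, converted 0), so the lists may differ in the threshold applied. P-values served only to rank or filter within a list.

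Regions are unions of peaks overlapping by at least 1 bp, called in each list with a peak there. Regions touching a gene body or 50 kb on each side were counted, with gene positions and promoters from RefSeq (GRCm38.p6). Named genes were the 8 members, genes in their windows, the 3 genes of each fixed list with the largest net in each direction, and windows of like pattern. Further list members with more resident regions are named to complete a count. Members and lists were chosen with earlier results of these data known. Alternatives were other windows, equal list lengths (the 15552 peaks of smallest p-value, wider peaks first among ties), p at most 1e-05, 50% overlap, joining within 200 bp, nearest gene and, added after seeing the data, each gene left out. The code was tested on simulated lists. Tools were pandas 2.3.3, numpy 2.4.6 and matplotlib 3.10.9 under Python 3.11.15.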

Additional observations from a re-analysis of the deposited data

How the results depend on the processing

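No paired analysis was possible because the lists merge the 3 samples of a group and carry no replicate number, and no replicate could be left out for that reason. Depth is unknown and limits every missing call. Causes of the changes below were not tested, apart from smaller windows and shorter lists holding fewer peaks by construction. The resident share against monocyte-derived, 54.5%, was 75.0% at equal list lengths, 85.7% in gene bodies, 45.5% with p at most 1e-05, and 48.1% without Adgre1 or without Tgfb2 (genes left out were chosen after seeing the data). The converted share against monocyte-derived, 30.8%, was 69.2% at equal lengths (9 against 4), 66.7% in gene bodies (6 against 3) and 14.3% without Tgfb2. The converted share against resident, 25.9%, was 39.1% at equal lengths, 13.0% with peaks joined within 200 bp and 15.0% without Tgfb2. Peaks in the windows (29 monocyte-derived, 21 converted, 35 resident) were 5, 8 and 16 in gene bodies. With 10 kb on each side there were 13 monocyte-derived and 23 resident peaks, by nearest gene 14 and 23, and at equal lengths 12 monocyte-derived. Regions (27, 17 and 30) were 5, 8 and 15 in gene bodies and 13, 11 and 19 with 10 kb; monocyte-derived ones were 14 by nearest gene and 12 at equal lengths. Of 168 nets per gene, comparison and alternative, 140 kept their sign, 22 moved to or from 0 and 6 turned: Icam2 resident minus monocyte-derived from -1 to 1 with 10 kb, gene bodies, nearest gene and equal lengths, Icam2 converted minus monocyte-derived from -1 to 1 at equal lengths, and Tgfb2 converted minus resident from 1 to -2 with joined peaks.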
